A study of Apostichopus japonicus with 9 samples.

Results

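Among the microRNAs (miRNAs) that differed between heat-stressed and control intestines of the sea cucumber Apostichopus japonicus, 4 abundant ones carry names from the number range used for sea squirts: miR-4159-3p, miR-4005c-5p, miR-4113-5p and miR-4206-3p. They were chosen by name and by a high level in at least 1 group, so their levels and differences are given as a description. They are 4 of the 409 miRNA names in the deposited tables, and 4 of the 19 names in this number range, which run from miR-4005c-5p to miR-4206-3p. Intestines came from sea cucumbers of 100 to 120 g that were kept under normal conditions (control) or under heat stress at 26 °C for 6 h or 48 h. Each group had 3 libraries, each made from the total RNA of 1 animal. The labels give no sex, strain, exact age, control temperature or control sampling time. Both heat times were set against the same control group, so time in warm water and time since the start of the experiment cannot be told apart.

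miRNAs are short RNAs cut from hairpin precursors. The suffixes 5p and 3p name the arm of the hairpin, and the bases near the 5′ end, the seed, pair with target messages, which are then translated less or degraded. Numbers are given in order of entry into the miRNA database, so a block of numbers can mark 1 organism's set. Sea squirts are tunicates, the closest living relatives of vertebrates, while sea cucumbers are echinoderms, and many miRNAs first listed in sea squirts have no known relative in other animals. The names therefore record the sequence that the authors matched, not that sea cucumbers have the sea squirt gene. No function in the gut is given here for any of the 4, and their sequences were not used here.

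The tables give, for each group, the reads of a miRNA summed over the 3 libraries and its mean level in RPM, reads per M reads of a library (M for mega). They hold no value per library, so no SD can be given. Fold values are ratios of mean RPM, and where the control is at 0 it was set to 20 RPM, which makes the fold a lower bound. Division of the summed reads by the summed RPM shows where the reads came from: a miRNA with all reads in 1 library gives that library's total. The totals recovered in this way were 91.6, 109 and 145 M reads in the control. The 6 h libraries had 54.4, 69.3 and 96.9 M reads. The 48 h libraries had 57.2, 61.9 and 113 M reads. Which animal each total belongs to is not known. Among names with all reads in 1 library the smallest library level was 20.01 RPM, so a listed 0 was taken to mean under 20 RPM in each of the 3 libraries. The single library levels behind other values are not known. Counting error was small, at most 0.496% of any read count of the 4 miRNAs. It does not cover the spread between animals or from library preparation, which cannot be told apart with 1 library per animal.

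**Figure D1:**
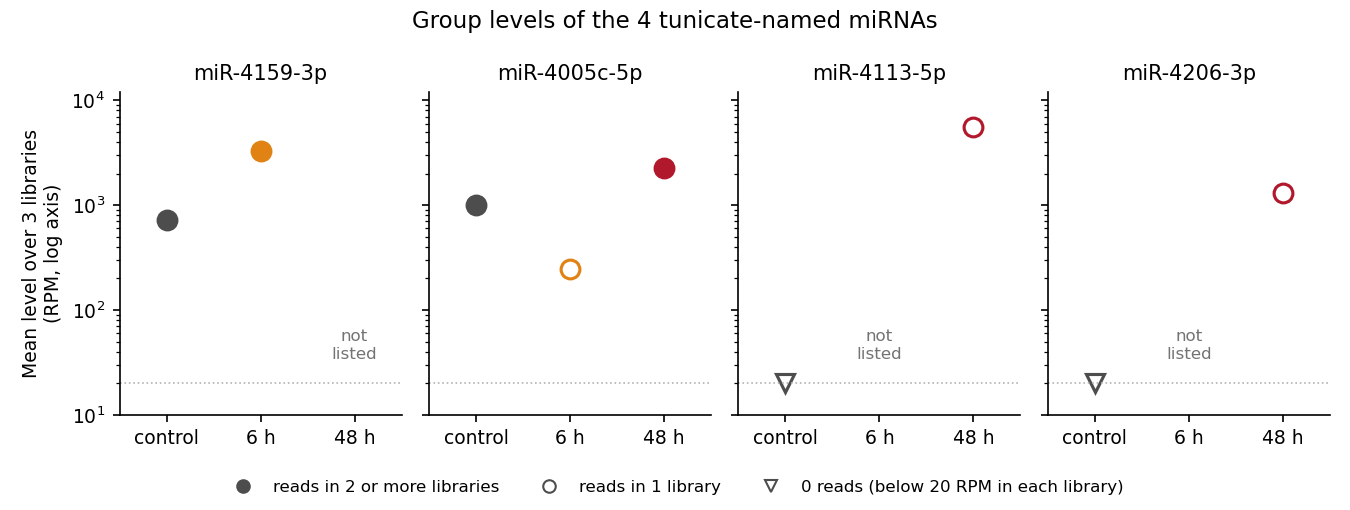
Mean level over 3 libraries (RPM, log axis) of each miRNA in the control, 6 h and 48 h groups. Filled points have reads in 2 or more libraries, open points in 1 library, and open triangles mark 0 reads, drawn at 20 RPM. miR-4159-3p was highest at 6 h (3280.0 RPM), miR-4005c-5p was lowest at 6 h (249 RPM) and highest at 48 h (2254 RPM), and miR-4113-5p and miR-4206-3p had reads only at 48 h among the groups listed.

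At 6 h the 2 listed miRNAs moved in opposite directions, with miR-4159-3p higher and miR-4005c-5p lower than in the control. At 48 h miR-4005c-5p, miR-4113-5p and miR-4206-3p were all higher. Among the 403 miRNAs that the authors tested at 6 h, 38.7% were listed as higher and 29.5% as lower, 68.2% in all. Among the 415 tested at 48 h, 43.1% were listed as higher and 26.7% as lower, 69.9% in all. Since the tables list only miRNAs beyond 2-fold and the members were taken from them, nothing is read from these counts. In the authors' deposited tables the p-values and q-values of all 4 were entered as 0, in each comparison that lists them. Those values compare pooled reads and do not measure the spread between animals. The levels of single libraries were therefore bounded from the read sums and means.

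miR-4159-3p was the miRNA with the highest level of all 176 names listed with reads at 6 h. Its 634333 reads at 6 h gave a mean of 3280.0 RPM, against 227868 reads and 726 RPM in the control, where it ranked 19th of 202. These ranks cover unlike sets and cannot be compared. The control rank includes names listed at either heat time, the 6 h rank only names listed at 6 h. miR-71c-5p, at 9299 RPM in the control, was listed at 48 h only and has no rank at 6 h. The ratio of the means was 4.52, and both groups had reads in 2 or more libraries. At 6 h the library of 54.4 M reads must have held between 3173 and 7509 RPM, the library of 69.3 M reads up to 6667 RPM and that of 96.9 M reads up to 2331 RPM. In the control the library of 91.6 M reads must have held between 551 and 1644 RPM, while the other two could reach 1627 and 533 RPM. Of the 3 libraries at 6 h, at least 2 therefore lay above every control library: the second highest at 6 h had at least 1727 RPM, and no control library exceeded 1644 RPM. The third library at 6 h may have had none or as much as 1727 RPM, so the columns do not settle whether the groups overlap.

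The spread of miR-4159-3p between libraries was wide in both groups. Its coefficient of variation over libraries was at least 63.0% at 6 h and 58.2% in the control. Without any 1 library the mean at 6 h stayed between 1166 and 4920 RPM, and the control mean between 267 and 1089 RPM. The lowest value at 6 h was thus above the highest in the control, which holds even with a library left out of each group. At 48 h miR-4159-3p was not listed. If it was tested, its RPM over the pooled reads lay within 2-fold of the control, between 329.8 and 1319 RPM. The corresponding pooled level was 660 RPM in the control and 2876 RPM at 6 h, so under that reading the 48 h level was below the 6 h level.

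**Figure D2:**
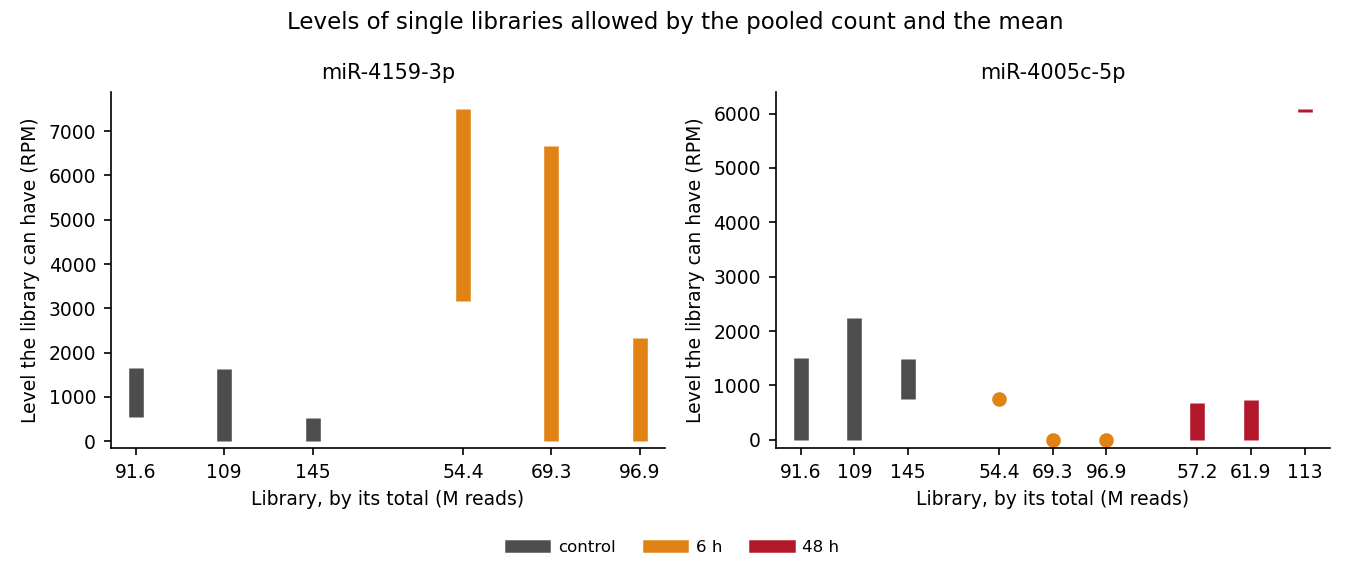
Levels in RPM that each library can have, given the pooled count and the mean level, for miR-4159-3p and miR-4005c-5p. Bars span the allowed range, dots mark levels that are fixed, and libraries are named by their total in M reads. For miR-4159-3p the 6 h library of 54.4 M reads lies above all control bars, and for miR-4005c-5p the 48 h library of 113 M reads stands at 6029.6 to 6091 RPM, above every other library.

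Of the 4, only miR-4005c-5p was in both tables, with reads in all 3 groups. Its mean was 994 RPM in the control (351815 reads), 249 RPM at 6 h (40604 reads) and 2254 RPM at 48 h (728687 reads). The 6 h mean was 4.0-fold below the control, or at least 3.79-fold with the empty libraries set to 20 RPM, and the 48 h mean was 2.27-fold above it. In the control the reads came from 2 or more libraries. The library of 145 M reads must have held between 743 and 1478 RPM, and the highest control library, whichever it was, between 1113 and 2238 RPM.

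At 6 h all reads of miR-4005c-5p came from the library of 54.4 M reads, at 746 RPM. The other two 6 h libraries were below 20 RPM. The library with reads at 6 h thus lay near the lower end of the range of the control library of 145 M reads. The lower 6 h mean comes from the 2 libraries below 20 RPM. Without the library of 54.4 M reads no level would be left at 6 h, and with either of the empty ones left out the mean would be 373 RPM. In the control the libraries of 91.6 and 109 M reads may each have had none, and without 1 control library the control mean can be as low as 372 RPM. The log2 ratio of 6 h to control would then be -0.58 in place of -2.0, and with a library left out of each group the direction is not fixed by the columns.

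At 48 h between 89.2% and 90.1% of the level of miR-4005c-5p lay in the library of 113 M reads, at 6029.6 to 6091 RPM. The others held at most 672 and 733 RPM and averaged 336 to 366 RPM. That average is below the control mean of 994 RPM, so the direction at 48 h turns when this library is left out: the log2 ratio to the control goes from 1.18 to -1.57 at the lowest, and from above to below the control at every split that the columns allow. Both other 48 h libraries were below the highest control library, which had at least 1113 RPM. The 48 h mean was 9.06-fold above the 6 h mean, or at least 8.60-fold with the empty 6 h libraries at 20 RPM. This ratio fell to a log2 value of 0.43 at the lowest, from 3.18, without a 48 h library.

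miR-4113-5p had the highest mean of the 4 in any group, 5595 RPM at 48 h, where it ranked 7th of the 194 names listed with reads. It was listed at 0 in the control, which puts the 48 h mean at least 279.8-fold higher. All of its 1902315 reads came from the library of 113 M reads, at 16786 RPM, or 1.68% of that library's reads. The other two 48 h libraries and all 3 control libraries were below 20 RPM. The groups therefore differed in 1 library of 3, and without it nothing is left of the difference. The count divided by the level gave a total that differed by 8.63e-06% from the one given by 52 other miRNAs found only in that library.

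miR-4206-3p had a mean of 1306 RPM at 48 h and was listed at 0 in the control, at least 65.3-fold higher on the mean. Its 242534 reads all came from the 48 h library of 61.9 M reads, at 3919 RPM. The library of 113 M reads, which held miR-4113-5p, had less than 20 RPM of miR-4206-3p, and the library of 61.9 M reads had less than 20 RPM of miR-4113-5p. The pair therefore came from different animals of the 48 h group. Neither was listed at 6 h. With the control at 0, any listed reads at 6 h would have been far beyond 2-fold. If the table is complete, both were thus below 20 RPM in each 6 h library.

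**Figure D3:**
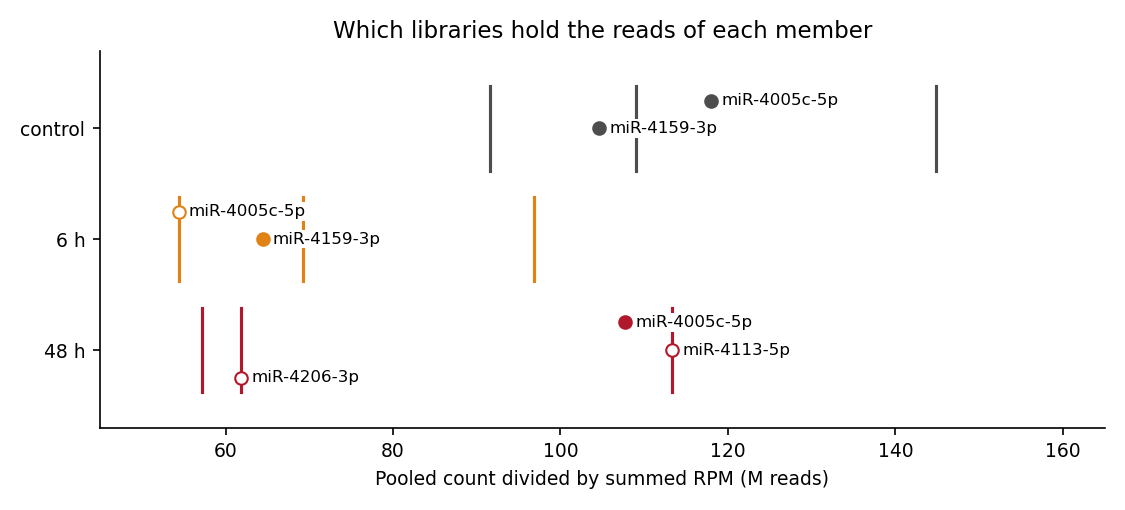
Pooled count divided by summed RPM (M reads) for each miRNA in the groups where it had reads, beside the recovered library totals (vertical lines). Open points sit on a line and had all reads in that library, as miR-4113-5p at 113 M reads and miR-4206-3p at 61.9 M reads, and filled points lie between lines and had reads in 2 or more libraries.

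The library of 113 M reads at 48 h held between 22815 and 22877 RPM of miR-4113-5p and miR-4005c-5p together. This is at least 83.1% of the summed 48 h level of the 3 listed miRNAs. Its part in the group means is shown by the values without it: below 20 RPM for miR-4113-5p, 336 to 366 RPM for miR-4005c-5p, and an unmoved sum for miR-4206-3p. Among all listed names, 53 of the 118 with reads in 1 library at 48 h had them in this library, 35 in that of 61.9 M reads and 30 in that of 57.2 M reads.

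The order of the 4 differed between groups. In the control the mean of miR-4005c-5p was 1.37-fold above that of miR-4159-3p. In the control library of 145 M reads miR-4005c-5p, with at least 743 RPM, was above miR-4159-3p, with at most 533 RPM. In the control libraries of 91.6 and 109 M reads the ranges overlap, so their order there is not known. At 6 h miR-4159-3p was 13.2-fold above miR-4005c-5p, and its highest library had at least 4550 RPM against 746 RPM. At 48 h miR-4113-5p was 2.48-fold above miR-4005c-5p and this in turn was 1.73-fold above miR-4206-3p. In the library of 113 M reads miR-4113-5p was above miR-4005c-5p, whereas in the library of 61.9 M reads miR-4206-3p, at 3919 RPM, was above miR-4005c-5p, which had at most 733 RPM there. These comparisons between miRNAs are of reads, which also depend on how well each sequence is ligated and amplified.

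The other 15 names of the sea squirt number range were far lower. The 4 members were chosen for a high level, so this gap and their share of the sums below follow from the choice. The lowest of the 4 by its highest group was miR-4206-3p at 1306 RPM, and the next name outside was miR-4175-3p at 289 RPM (6 h), followed by miR-4194-3p at 105 RPM (48 h). In the control 10 of the 19 had reads and summed to 1923 RPM, of which the 2 members with reads made 89.5%. At 6 h the sum was 4075 RPM over 11 names, with 86.6% in members, and at 48 h it was 9369 RPM over 8 names, with 97.7% in members. Names that 1 table does not list are missing from these sums, miR-4159-3p at 48 h among them. The number range was represented by 6 names of the 5p arm and 13 of the 3p arm, and no hairpin by both arms.

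**Figure D4:**
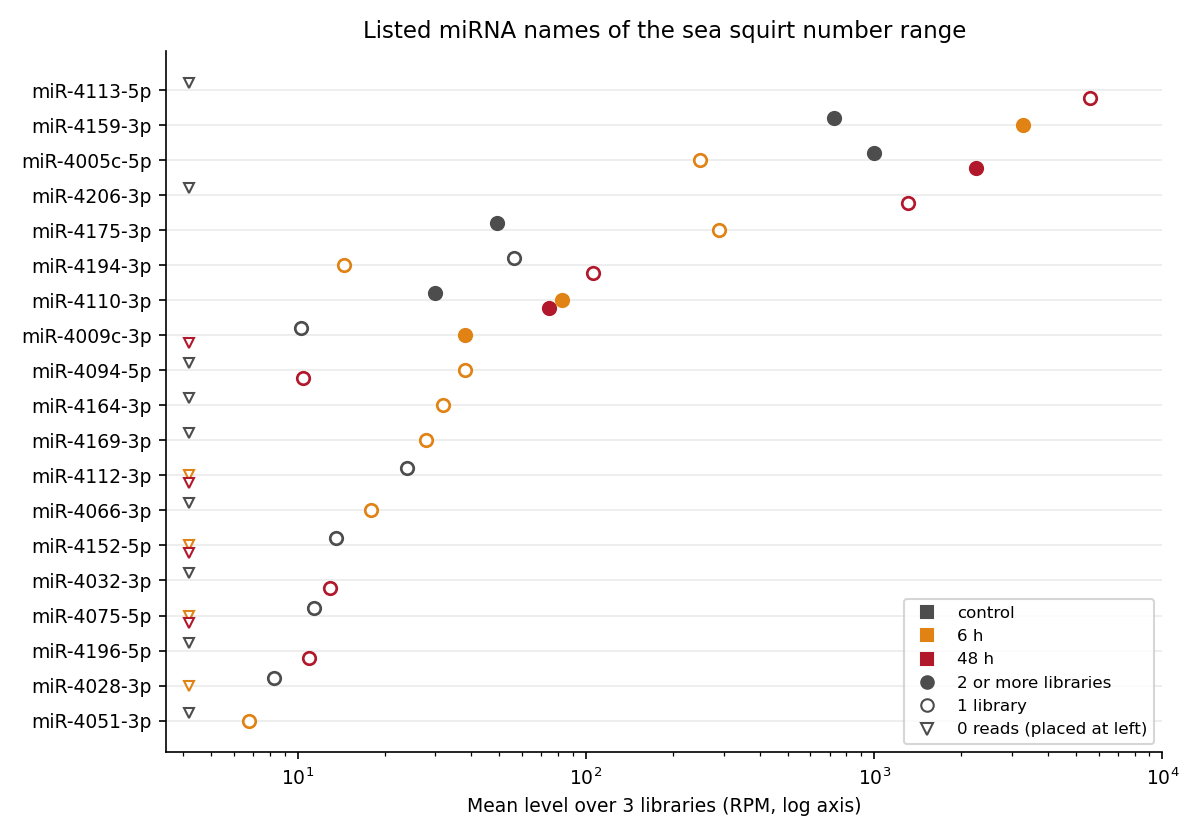
Mean level over 3 libraries (RPM, log axis) of all 19 listed names of the sea squirt number range, by group. Filled points have reads in 2 or more libraries, open points in 1, and triangles at the left edge mark 0 reads. The 4 members stand at the top with a highest level from 1306 to 5595 RPM, and all but miR-4175-3p and miR-4194-3p among the rest stay below 100 RPM.

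Of the 15 names in this range that the 6 h table lists, 9 were higher and 6 lower than in the control. For 11 of the 15, or 73.3%, the group with the higher level had its reads in 1 library, beside 73.8% of all 275 listed miRNAs. At 48 h 8 were higher and 4 lower, and 10 of the 12, or 83.3%, rested on 1 library, beside 69.7% of all 290. A stricter call set libraries that could lie below 20 RPM to 20 RPM in the lower group and asked for a ratio of at least 2. It kept 5 of 15 at 6 h, 33.3% beside 29.5% of all listed, and 4 of 12 at 48 h, 33.3% beside 30.7%. The call depends on level, and the members were chosen for a high level, so nothing is read from their passing it. With the members left out it kept 3 of 13 at 6 h (23.1%) and 1 of 9 at 48 h (11.1%), below the shares of all listed. Of all miRNAs tested, 12.9% were higher and 7.2% lower by this call at 6 h, and 14.5% were higher and 6.99% lower at 48 h.

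Outside the 4, the names that the stricter call kept were miR-4175-3p, miR-4110-3p and miR-4194-3p. miR-4175-3p was 5.89-fold higher at 6 h, at 289 RPM against 49.1 RPM, with all 6 h reads in the library of 69.3 M reads at 868 RPM. The control library with the most had at most 108 RPM. Among the names of the range with a value in all 3 groups, only miR-4110-3p had reads in 2 or more libraries of each. miR-4159-3p, not listed at 48 h, could not be judged. miR-4110-3p stood at 29.9 RPM in the control, 82.5 RPM at 6 h and 74.1 RPM at 48 h, 2.76- and 2.48-fold higher. At 6 h its highest library made up at least 81.2% of the level, with a mean of no more than 23.3 RPM in the other two, whereas at 48 h the second highest library had at least 61.7 RPM. miR-4194-3p was lower at 6 h, at 14.4 RPM against 56.4 RPM, at least 2.03-fold. All of its control reads came from 1 library, at 169 RPM, and all of its 6 h reads from 1 library, at 43.2 RPM. Without that control library no level would be left in the control.

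The remaining 12 did not pass the stricter call in either table. At 6 h miR-4009c-3p, at 38.1 RPM against 10.2 RPM, had reads in 2 or more libraries, and miR-4094-5p, miR-4164-3p, miR-4169-3p, miR-4066-3p and miR-4051-3p had reads in 1 library, none in the control, and means from 6.78 to 37.9 RPM. miR-4032-3p, miR-4196-5p and miR-4094-5p did so at 48 h, with means from 10.4 to 12.9 RPM. miR-4112-3p, miR-4152-5p and miR-4075-5p had control reads in 1 library, means from 11.4 to 23.9 RPM, and none at either heat time. miR-4028-3p stood at 8.24 RPM in control intestines and at 0 after 6 h. With the empty libraries set to 20 RPM, all 12 stayed under a ratio of 2.

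Of the 8 names in the range that both tables list, 5 had the same direction at both times and 3 did not. Both comparisons use the same control libraries. Among the 5, miR-4075-5p, miR-4112-3p and miR-4152-5p each had reads in 1 control library and 0 at both heat times, so their like direction rests on that library. The share for all 156 names listed at both times is not given here, so nothing is read from this count. Those that changed direction were miR-4005c-5p and miR-4194-3p, both lower at 6 h and higher at 48 h, and miR-4009c-3p, higher at 6 h and at 0 at 48 h. Across all names, 55 of the 156 in both tables had reads at both heat times, and 14 of these, miR-4005c-5p among them, had a higher mean at 48 h than at 6 h.

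For each of the 4, the listed miRNAs with the most similar levels were sought among names in the same tables with at least 100 RPM in a group, by the mean absolute difference in log2(RPM + 20) over the groups given. miR-4159-3p was closest to miR-488-3p, at 842 RPM in the control and 2218 RPM at 6 h, with a difference of 0.38 over 2 groups. miR-4520-5p and miR-4175-3p followed at 3.22 and 3.42. miR-4113-5p was closest to miR-71b-5p, at 0 in the control and 3071 RPM at 48 h, with a difference of 0.43, and both had all 48 h reads in the library of 113 M reads. miR-429 and miR-7a came next at 1.01 and 2.13.

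miR-4206-3p was closest to miR-429, an epithelial miRNA of the miR-200 family in vertebrates, with a difference of 0.03 over 2 groups, then to miR-71b-5p (0.61) and miR-7a (1.09). miR-429 had 243953 reads at 48 h, 1364 RPM on the mean, and none in the control, so its counts were within 15% of those of miR-4206-3p. The reads cannot all be the same ones, since miR-429 must have had at least 1967 RPM in the library of 57.2 M reads, where miR-4206-3p was below 20 RPM. In the library of 61.9 M reads miR-429 may have had none or up to 2124 RPM, so the columns do not settle whether part of the reads was shared. miR-7a had its 48 h reads in the library of 61.9 M reads, as miR-4206-3p did. No close match was found for miR-4005c-5p over the 3 groups. The nearest were miR-375, miR-375-3p and let-7e at 1.36, 1.37 and 2.08.

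Markers of cell types could move with the members, since a bulk intestine cannot tell fewer cells of a type from less RNA per cell. Of 2 listed names of the epithelial list at 48 h, miR-429 and miR-205-5p, both were 0 in the control and summed to 1458 RPM at 48 h. At 6 h miR-8, the 1 epithelial name listed, went from 69.8 RPM to 0. The muscle list, made of 10 names at 48 h, summed to 21304 RPM in the control and 52694 RPM at 48 h, with 4 at 0 in the control and 2 at 48 h. Most of the 48 h sum came from miR-1a-3p (17821 RPM), miR-1-3p (17338 RPM) and miR-1c (17326 RPM). Their counts were nearly equal, so the sum may count the same reads more than once. The stricter call kept 4 of the 10 names. At 6 h the 5 listed names of the muscle list summed to 9.32 RPM in the control and 60.5 RPM under heat. The neural list of 6 names at 48 h went from 1396 to 3673 RPM, with 3 at 0 in the control. Its 4 names at 6 h, without miR-124 and miR-124-3p, summed to 23.8 RPM in the control and 49.4 RPM at 6 h. Of these names 2 were higher and 2 lower, and all 4 had the reads of their higher group in 1 library. The secretory list was split at 48 h, with 4 of its 8 names higher and 4 lower: miR-7-5p was at 763 RPM against 218 RPM and miR-375-3p at 669 RPM against 1913 RPM. Its sum was 4596 RPM in the control and 3699 RPM at 48 h. At 6 h 1 of its 4 names was higher and 3 were lower, with sums of 4058 and 1551 RPM. The blood cell and vertebrate immune list had no name at 6 h and 2 at 48 h, both 0 in the control, with 82.1 RPM in all. Names in these lists can share reads, and their part in the levels of the 4 miRNAs was not tested.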

How the data were processed

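Small RNA of 18 to 30 nt from intestine total RNA was gel-selected, ligated to adapters, and fragments between 140 and 160 bp were read on a HiSeq, per the labels' protocols. The aligner, the miRNA database and the way reads were counted were not given in the sources used here. Per the file headers, the authors deposited 1 table per heat group against control: a pooled read count per miRNA and group, an expression value, a log2 ratio, a p-value and a q-value. Tested on the values, the authors' expression is RPM averaged over 3 libraries, with 0.001 for a library at 0. The ratios of q to p gave the 403 and 415 miRNAs tested, of which 128 and 125 were not listed.

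Tables hold group values only, so the planned test of replicates was replaced by the authors' q-value (under 0.05), which is counting error, and no test was run. Each library is 1 animal, per the labels' protocols. Library totals were taken as the 3 densest values of count over summed RPM among names in 1 library. Ranges of single libraries are all non-negative levels that give both the count and the mean. The sums of totals gave 1.5667 and 1.4867 as ratios of control to heat totals, against 1.5665 and 1.4871 in the authors' log2 ratios. The method was tested on simulated data. Folds against a listed 0 used 20 RPM. Names were the 4 members, others of the sea squirt number range, and for each member the 3 most similar miRNAs; names agreeing within 15% in counts were checked for shared reads. Members, lists and names were chosen with earlier results of these data known. Python 3.11.15, numpy 2.4.6, pandas 2.3.3 and matplotlib 3.10.9 were used.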

Additional observations from a re-analysis of the deposited data

How the results depend on the processing

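The pooled tables limit what can be varied. At q under 0.001 the counts stayed at 275 (6 h) and 290 (48 h), and at 15 and 12 for names in the sea squirt number range. With a filter of 100 RPM on the higher mean they were 54 and 68, and 3 and 4 in the number range. By the stricter call they were 81 and 89, and 5 and 4. Names higher at 48 h than at 6 h were 14 by means, 19 by pooled counts and 19 with the 5 most abundant left out of the totals. Leaving out 1 heat library, an alternative added after seeing the data, left reads in the higher group for 11 to 15 names of the range at 6 h and 8 to 12 at 48 h. These counts include the names lower under heat, 6 at 6 h and 4 at 48 h. Their higher group is the control, so they could not lose reads. For 5 of the 6 and all of the 4 the control reads were in 1 library, and leaving out a control library was not tried for this count. For 6 ratios of members, 41 of 42 alternative values kept the direction. The exception was miR-4005c-5p at 48 h, whose log2 ratio of 1.18 ranged from -1.57, without the library of 113 M reads, to 2.60 over all libraries that could be left out. Pooled counts moved its log2 ratio of 48 h to 6 h from 3.18 to 4.09. Lower bounds against a 0 follow the level chosen for it: with 10 RPM the log2 bound of miR-4113-5p was 9.13 in place of 8.13, and that of miR-4206-3p 7.03 in place of 6.03. Leaving out the only library with reads of these 2 gives no ratio and is not among the 42 values. The same case for miR-4005c-5p at 6 h was set to 20 RPM, gave -5.64 against the control, and was counted as keeping the direction. The 10 RPM setting cannot move a ratio without a listed 0. The 41 of 42 is therefore no measure of how firm differences are that rest on 1 library. No paired analysis was possible because the columns hold 1 value per group and carry no replicate number, and for the same reason count tests per library could not be fitted. Counting error was at most 0.496% for the 4 members, and levels under 20 RPM in a library could not be seen.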

Other observations

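miR-4194-3p, chosen after its values were seen, followed miR-4005c-5p across the groups at a lower level. Its mean was 5.67% of that of miR-4005c-5p in the control, 5.79% at 6 h and 4.67% at 48 h. In each group its reads came from 1 library: that of 145 M reads in the control (169 RPM), that of 54.4 M reads at 6 h (43.2 RPM) and that of 113 M reads at 48 h (316 RPM). The last pair are the libraries that held all or most of miR-4005c-5p. Within them miR-4194-3p was 5.79% of miR-4005c-5p at 6 h and 5.19% to 5.24% at 48 h, and in the control library of 145 M reads it was 11.4% to 22.7%.

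The names of the range with reads in 1 library were spread over several animals. At 6 h 4 were in the library of 54.4 M reads (miR-4005c-5p, miR-4051-3p, miR-4094-5p and miR-4194-3p) and 4 in that of 69.3 M reads (miR-4066-3p, miR-4164-3p, miR-4169-3p and miR-4175-3p). At 48 h 4 were in the library of 113 M reads (miR-4032-3p, miR-4113-5p, miR-4194-3p and miR-4196-5p) and 2 in that of 61.9 M reads (miR-4094-5p and miR-4206-3p).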
